A study of Mus musculus with 12 samples.

Results

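The genes described here are 43 interferon-stimulated genes of the mouse, chosen by symbol from the known targets of interferon. All 43 were found among the 43629 genes of the deposited count table, and all 43 were among the 13944 genes that passed the filter on low counts, so every one of them was tested. RNA sequencing measured them in pre-T cells sorted from thymi of C57BL/6 mice, with 4 biological replicates in each of 3 groups. DCKO cells were DN3-like cells with the genotype Zfp36l1fl/fl, Zfp36l2fl/fl, CD2cre, in which a Cre recombinase under CD2 control, active in lymphoid cells, deletes both floxed genes. DN3b and DN3a cells came from control mice with the same floxed alleles and no Cre, so the presence of Cre and the loss of the genes cannot be told apart. DN3a and DN3b are stages of thymocytes that lack both coreceptors, CD4 and CD8. Beta selection, in which a cell with a rearranged T cell receptor beta gene begins to divide, lies between them. Zfp36l1 and Zfp36l2 encode RNA-binding proteins that recognise AU-rich sequences in messenger RNA and promote its decay. The labels do not tie the replicates to named animals, so p-values measure the spread between these samples.

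Interferons are secreted proteins that alert cells to viruses. Type I interferons bind the receptor of Ifnar1 and Ifnar2, whose kinases Jak1 and Tyk2 phosphorylate Stat2; it joins Irf9 in a complex that binds the interferon-stimulated response element in the promoters of target genes. Type II interferon acts through Ifngr1, Ifngr2, Jak1 and Jak2 on genes with a gamma-activated site. The products of the induced genes sense foreign nucleic acids, block virus entry, copying and translation, modify proteins, present antigen and damp the signal itself. Many of the same genes are transcribed at a low tonic level in cells that meet no virus.

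Promoter sequences from RefSeq (GRCm38.p6, 250 bases before to 50 bases after each annotated start) were found for 33 of the 43 genes; Dhx58, Zbp1, Oas2, Mx1, Mx2, Rtp4, Usp18, Parp9, Parp14 and Ifi27l2a had no entry. The core of the response element was searched as GAAA NN GAAA without the spaces, where N is any base, on both strands. It was found in 17 of the 33 genes (51.5%), against 3.83% of the 9779 tested genes with an entry and 3.99% of all 27025 genes with one. The gamma-activated site was searched as TTC NNN GAA, which reads the same on both strands. It was found in 8 of the 33 genes (24.2%), against 8.40% of tested genes. Gbp7, Oas1a, Bst2 and Igtp held both motifs, and at Bst2 the matches overlapped. A match describes the letters and is not a measured binding site, and a window without one says nothing about the factor. The first 6 windows belong to genes whose promoter held the core and whose level in each library is given below. Among such genes they were taken by the lowest adjusted p in any comparison. The window of Irf1 is shown as an example of the other site. Each is given 5′ to 3′ on the strand of the gene, with up to 30 bases on either side and the matched letters in capitals.
Gbp7 (chr3:142530253-142530322, plus strand, match from base -53 relative to the start): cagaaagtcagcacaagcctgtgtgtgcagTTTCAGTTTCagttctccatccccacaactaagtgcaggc
Gbp2 (chr3:142620574-142620643, plus strand, match from base -59): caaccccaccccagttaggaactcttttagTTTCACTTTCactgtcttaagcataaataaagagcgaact
Stat2 (chr10:128270248-128270315, plus strand, match from base -222): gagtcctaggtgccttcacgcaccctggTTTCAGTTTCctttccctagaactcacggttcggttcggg
Ifit1 (chr19:34640755-34640843, plus strand, 2 matches, the first from base -104): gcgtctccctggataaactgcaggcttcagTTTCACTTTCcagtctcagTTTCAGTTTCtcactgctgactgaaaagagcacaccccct
Isg15 (chr4:156200845-156200926, minus strand, 3 overlapping matches, the first from base -78): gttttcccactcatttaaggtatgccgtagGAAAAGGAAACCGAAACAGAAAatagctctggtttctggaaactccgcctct
Socs1 (chr16:10785574-10785649, minus strand, 2 overlapping matches, the first from base -83): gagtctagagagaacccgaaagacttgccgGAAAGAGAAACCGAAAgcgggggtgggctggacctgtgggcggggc
Irf1 (chr11:53769894-53769962, plus strand, gamma-activated site from base -90, chosen after its match was seen): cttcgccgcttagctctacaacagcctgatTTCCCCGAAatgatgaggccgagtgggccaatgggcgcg

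The libraries held 30401159 to 41258922 counts in DCKO, 32359182 to 41664096 in DN3b and 28479157 to 45975678 in DN3a, and levels are given as CPM, the count of a gene relative to the TMM-scaled total of its library. Zfp36l1 stood at 1.64 to 3.80 CPM in the DCKO libraries, against 9.63 to 23.3 in DN3b and 27.1 to 43.9 in DN3a, and Zfp36l2 at 45.4 to 87.9 CPM in DCKO, against 287 to 467 in DN3b and 341 to 685 in DN3a. The 13 markers of DN3 pre-T cells, among them Ptcra, Rag1 and Cd3e, summed to 11700 to 15600 CPM in DCKO, 7040 to 9840 in DN3b and 10500 to 13200 in DN3a. They did not move alike: Rag1 averaged 4310, 997 and 1810 CPM in DCKO, DN3b and DN3a, and Il2ra 225, 142 and 654. In the edgeR test given below, 2 of the 13 were called higher and 2 lower in DCKO against DN3a. Against DN3b 5 were called higher and 0 lower in DCKO. Library 1 of DN3b stood apart from its group. On the first principal component of the tested genes without the 43 (60.3% of the variance) it lay at -2.97, against 14.9, 30.4 and 44.2 for the other DN3b libraries, 28.5 to 38.8 for DCKO and -68.7 to -40.0 for DN3a. It held 8.69 CPM of Cd8b1, a gene of later thymocytes, against 17.6 to 26.7 in the other DN3b libraries, and 71.7 CPM of the Notch target Hes1 against 15.1 to 31.7. DCKO libraries 1 and 2 had the lowest TMM factors of the 12, 0.816 and 0.902. Counts of called genes are given with and without these libraries.

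By mean level, most of the interferon-stimulated genes were highest in DN3a cells before beta selection, lowest in DN3b cells and in between in DCKO cells. This is an order of means: between DCKO and DN3b 32 of the 43 did not pass the test given below. Igtp alone was called both below DN3a and above DN3b in DCKO. The mean levels followed the order DN3a, DCKO, DN3b for 27 of the 43 genes, and DCKO was highest for 12, among them Usp18, Epsti1, Mx1, Mx2, Bst2 and Isg15. DN3a, DN3b, DCKO was the order of Irf1, Irf7 and Samd9l, and Ifit2 alone was highest in DN3b and lowest in DN3a. These orders were not counted over all genes tested. The 43 genes summed to 2320, 2240, 2360 and 2450 CPM in DCKO libraries 1 to 4, against 2360, 1770, 1580 and 1360 in DN3b and 3490, 3230, 3460 and 3240 in DN3a. The DCKO and DN3a libraries were close to one another within their group, while the DN3b libraries spread widely. Library 1 was the highest DN3b library for 41 of the 43 genes and library 4 the lowest for 38. The same ranks were not counted over all genes tested. Libraries 1 and 4 are also the ends of the group on the principal component computed without the 43 genes. The part of that position in the results was not tested. In bulk RNA, fewer cells that express a gene and less RNA per cell cannot be told apart.

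**Figure D1:**
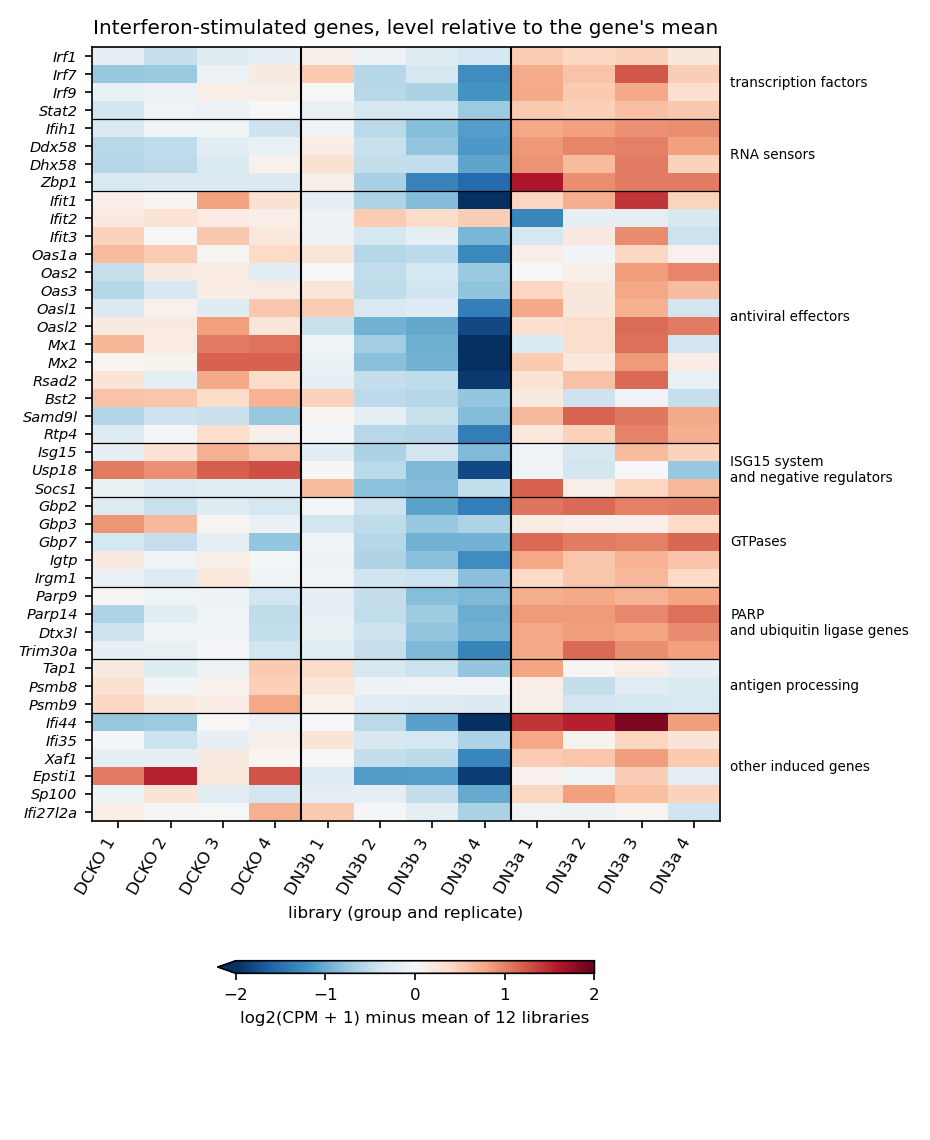
Level of each of the 43 genes (rows, grouped by role) in each of the 12 libraries (columns), as log2(CPM + 1) minus the gene's mean over all libraries; red is above and blue below the mean, and values under -2 share the darkest blue. Most rows are red in DN3a, blue in DN3b libraries 2 to 4 and pale in DCKO, while Usp18 and Epsti1 are red in DCKO.

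**Figure D2:**
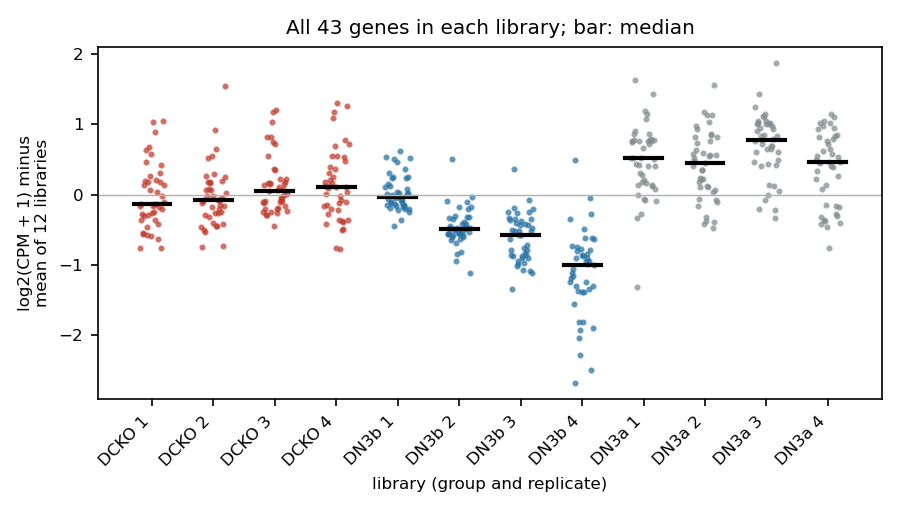
Each point is 1 of the 43 genes in 1 library, as log2(CPM + 1) minus the gene's mean over the 12 libraries (vertical axis); black bars are medians, which lie at -0.14 to 0.10 in DCKO, -1.0 to -0.03 in DN3b and 0.46 to 0.77 in DN3a. The median of DN3b library 1 lies among those of DCKO.

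The 3 comparisons use the same 12 libraries and each group stands in 2 of them, so values set side by side are not independent. Levels of DCKO were compared with DN3b to ask how the knockout cells differ from the stage after beta selection. In this comparison 11 of the 43 genes rose, 0 fell and 32 did not pass (edgeR's quasi-likelihood test, adjusted p under 0.05 over all 13944 genes). The 25.6% that rose stand against 10.3% of all genes tested that were higher in DCKO, and the 0 that fell against 8.58% that were lower; 0 of the 43 were lower at an unadjusted p under 0.05, and DESeq2 and limma-voom also called 0 lower. With upper quartile scaling 1051 of all genes were called higher and 1644 lower, against 1438 and 1197 with TMM, and 10 and 0 of the 43. The median log2 fold change was 0.40 for the 43 genes, between -0.23 and 2.12, and -0.02 for all genes; 39 of the 43 lay above 0. Without DN3b library 1, 1419 of all genes were called higher and 976 lower. Of the 43 genes 21 then rose and 0 fell, the 11 among them, and the median was 0.66. The 10 gained were Gbp2, Ifih1, Ifit1, Irf9, Irgm1, Parp9, Rtp4, Trim30a, Xaf1 and Zbp1. Without DCKO libraries 1 and 2 together, 528 of all genes were called higher and 422 lower. Of the 43 genes 6 then rose and 0 fell, and Bst2 (adjusted p = 0.162), Igtp (0.111), Mx1 (0.0706), Oas1a (0.276) and Psmb9 (0.0751) lost the call. Leaving out other single libraries gave 5 (DN3b library 2 or 3), 6 (DCKO library 1) or 7 (DCKO library 3) genes, and otherwise 9 to 11.

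DCKO was also compared with DN3a, the stage before beta selection. Here 6 genes rose, 23 fell and 14 did not pass, that is 14.0% higher and 53.5% lower, against 30.7% higher and 29.5% lower of all genes tested. The median log2 fold change was -0.60 for the 43 genes, between -2.06 and 1.42, and -0.04 for all genes. With upper quartile scaling, which moved the median of all genes to -0.264, 2 rose and 25 fell, and Bst2 (adjusted p = 0.0785), Epsti1 (0.0525), Ifit2 (0.122) and Psmb8 (0.269) lost the call; the median of the 43 was 0.56 below that of all genes under both scalings. Over all genes that scaling called 3119 higher and 5528 lower, against 4275 and 4116 with TMM. Without DCKO libraries 1 and 2 together 3423 of all genes were called higher and 3209 lower, and of the 43 genes 2 rose and 13 fell. Of the rises, Bst2 (adjusted p = 0.0917), Epsti1 (0.162), Ifit2 (0.123) and Psmb8 (0.0513) lost the call, and of the falls Dhx58 (0.0501), Ifi35 (0.161), Ifi44 (0.0978), Igtp (0.0551), Irf7 (0.148), Irf9 (0.147), Irgm1 (0.0715), Oas3 (0.261), Socs1 (0.115) and Xaf1 (0.151).

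Between the control stages, DN3b against DN3a, 1 gene rose, 33 fell and 9 did not pass. The 76.7% that fell stand against 25.2% of all genes tested that were lower in DN3b, and the 1 that rose, Ifit2, against 27.4% that were higher. With upper quartile scaling 3021 of all genes were called higher and 4536 lower, against 3815 and 3519 with TMM, and 1 and 34 of the 43. The median log2 fold change was -1.13 for the 43 genes, between -2.58 and 0.79, and -0.02 for all genes. The replicate numbers paired the libraries of these 2 groups. With the number as a block, 4529 of all genes were called higher and 4704 lower. Of the 43 genes 2 then rose and 37 fell, and Oas1a (log2 -0.79, adjusted p = 0.0224), Oasl1 (-0.81, 0.00401), Tap1 (-0.52, 0.000187), Usp18 (-0.55, 0.0385) and Psmb8 (0.18, 0.0393) gained a call. Without DN3b library 1, 1 rose and 38 fell, against 3968 of all genes called higher and 3822 lower. Other measures also differed from DN3a in both DCKO and DN3b. The nuclear RNA Malat1 took 0.0987 to 0.205% of the counts in DCKO and 0.0991 to 0.241% in DN3b, against 0.583 to 0.841% in DN3a. Mitochondrial genes took 1.63 to 2.51% in DCKO and 1.62 to 3.42% in DN3b, against 2.88 to 4.31% in DN3a. Their part in the falls of either comparison was not tested.

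Set side by side, 22 genes were lower than DN3a in both DCKO and DN3b and did not pass between DCKO and DN3b. Of all genes tested, 29.5% were lower than DN3a in DCKO and 25.2% in DN3b. How many of them share the whole pattern was not counted. This pattern held for all 4 transcription factors, all 4 RNA sensors and all 4 PARP and ubiquitin ligase genes with all libraries. Without DN3b library 1, Irf9, Ifih1, Zbp1, Parp9 and Trim30a of these 12 passed between DCKO and DN3b, and without DCKO libraries 1 and 2 together Irf7, Irf9 and Dhx58 no longer passed against DN3a. Another 5 genes, Oasl2, Mx1, Mx2, Isg15 and Gbp3, were lower in DN3b than in DN3a and higher in DCKO than in DN3b, and did not pass between DCKO and DN3a. Igtp was intermediate, below DN3a and above DN3b. Epsti1, Usp18, Bst2 and Psmb9 were higher in DCKO than in either control stage. Ifit3, Oasl1, Tap1 and Ifi27l2a passed in no comparison of the fit to all 12 libraries, although Oasl1 and Tap1 fell in DN3b against DN3a with the replicate block and without DN3b library 1 (adjusted p = 0.028 and 0.0171); Ifit3 and Ifi27l2a had only 242 and 309 counts in the 4 DCKO libraries together.

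**Figure D3:**
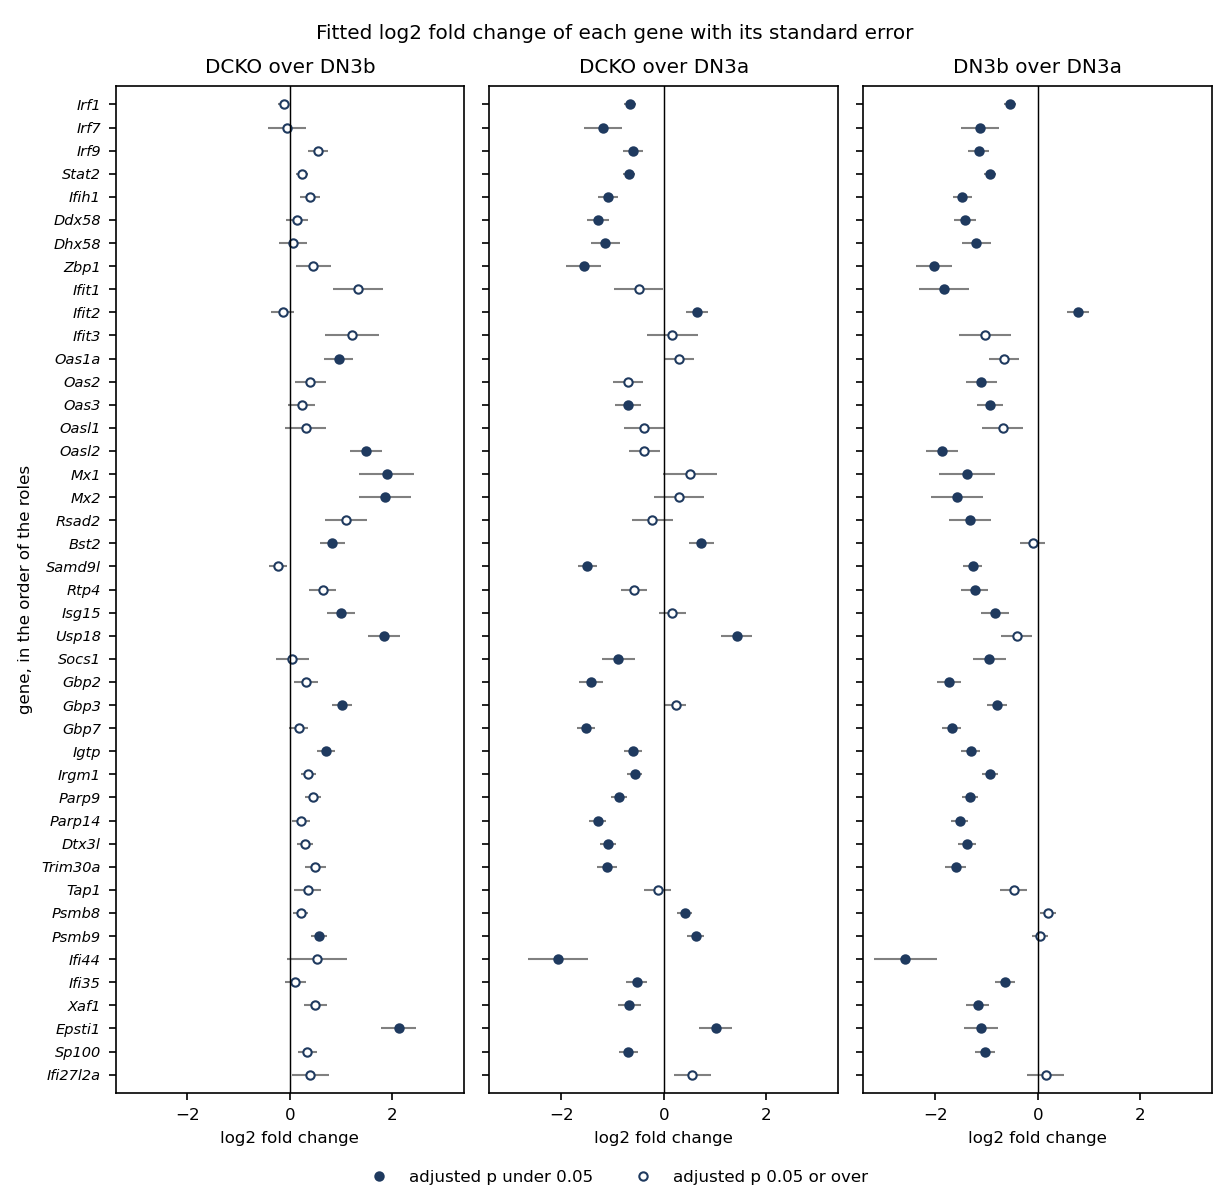
Fitted log2 fold change of each gene (horizontal axis; bars, standard error) for DCKO over DN3b, DCKO over DN3a and DN3b over DN3a, with filled points for an adjusted p under 0.05. On the right 33 filled points lie below 0 and 1 above; on the left the 11 filled points lie above 0. With upper quartile scaling the unfilled points of Dhx58 and Socs1 on the left, Ifit3 and Isg15 in the middle and Psmb9 on the right change side.

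The transcription factors of the response were below DN3a in DCKO and DN3b alike. Irf1 (ENSMUSG00000018899, GRCm38 chromosome 11, 53770014 to 53778374), an activator induced by interferon gamma, stood at 104, 84.5, 98.1 and 104 CPM in DCKO, 126, 109, 98.3 and 91.4 in DN3b and 167, 155, 161 and 136 in DN3a. Every DN3a library lay above every other library. Its log2 fold change was -0.66 ± 0.11 (SE, adjusted p = 0.00031) for DCKO over DN3a, -0.54 ± 0.11 (0.0017) for DN3b over DN3a and -0.12 ± 0.11 (0.489) for DCKO over DN3b. Irf7 (ENSMUSG00000025498, chromosome 7, 141262706 to 141266481), which amplifies interferon production, stood at 6.09, 6.15, 10.1 and 12.5 CPM in DCKO, 16.3, 7.10, 8.52 and 4.07 in DN3b and 19.1, 16.8, 27.3 and 15.8 in DN3a. DN3b library 1 reached the range of DN3a. Irf7 fell by 1.18 ± 0.37 in DCKO (0.014) and by 1.13 ± 0.37 in DN3b (0.020) against DN3a on the log2 scale; the first call was lost without DCKO libraries 1 and 2 together (-0.82, 0.148), the second without DN3b library 2 (0.0527) or DN3a library 3 (0.0658).

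Irf9 and Stat2 form the complex that binds the response element. Irf9 (ENSMUSG00000002325, chromosome 14, 55603571 to 55610030) stood at 64.3, 65.2, 78.1 and 77.2 CPM in DCKO, 71.1, 47.7, 45.4 and 30.5 in DN3b and 120, 102, 120 and 89.7 in DN3a. The DCKO libraries lay above 3 of the 4 DN3b libraries, and DN3a did not overlap with either group. Its log2 fold change was 0.55 ± 0.20 for DCKO over DN3b (adjusted p = 0.074, and 0.00593 without DN3b library 1), -0.60 ± 0.20 for DCKO over DN3a (0.020, but 0.0547 without DN3a library 3 and 0.147 without DCKO libraries 1 and 2) and -1.15 ± 0.20 for DN3b over DN3a (0.00054). Stat2 (ENSMUSG00000040033, chromosome 10, 128270559 to 128292849) stood at 34.1, 41.4, 40.4 and 44.2 CPM in DCKO, 39.9, 34.9, 34.2 and 26.3 in DN3b and 63.6, 61.8, 67.3 and 64.7 in DN3a. Again DN3a stood alone, and Stat2 fell by 0.68 ± 0.12 in DCKO (0.00041) and by 0.93 ± 0.12 in DN3b (9.3e-05) against DN3a, with 0.24 ± 0.12 (0.181) for DCKO over DN3b.

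All 4 sensors of foreign nucleic acid fell in DCKO and in DN3b against DN3a and missed the threshold between DCKO and DN3b (0 at an unadjusted p under 0.05, and 0 by DESeq2 or limma-voom), where their log2 fold changes ran from 0.06 to 0.46. They are Ddx58, which encodes RIG-I, Ifih1, which encodes MDA5, Dhx58, which encodes their regulator LGP2, and Zbp1, a sensor of Z-form nucleic acid that can start cell death. Against DN3a the log2 fold changes lay between -1.56 and -1.09 in DCKO and between -2.02 and -1.20 in DN3b. Of all genes tested, 29.5% were lower in DCKO and 25.2% in DN3b against DN3a. Dhx58 lost the DCKO call without DCKO libraries 1 and 2 (0.0501). Zbp1 (ENSMUSG00000027514, chromosome 2, 173206612 to 173218923) stood at 9.11, 9.21, 9.15 and 9.28 CPM in DCKO, 12.5, 6.92, 3.90 and 3.22 in DN3b and 37.3, 22.6, 24.2 and 24.2 in DN3a. The DCKO libraries hardly varied, while the DN3b libraries ranged on both sides of them. Zbp1 was 2.95-fold lower in DCKO (log2 -1.56 ± 0.34, adjusted p = 0.0016) and 4.06-fold lower in DN3b (-2.02 ± 0.35, 0.00044) than in DN3a, and DCKO over DN3b gave 0.46 ± 0.34 (0.365), with 0.97 (0.0197) without DN3b library 1.

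Among the 14 antiviral effectors, 5 rose and 0 fell in DCKO against DN3b, 2 rose and 2 fell against DN3a, and 1 rose and 9 fell in DN3b against DN3a. The shares of all genes tested were those given above for each comparison (10.3% and 8.58%, 30.7% and 29.5%, 27.4% and 25.2% for higher and lower). Mx1 and Mx2 encode dynamin-like GTPases that trap viral nucleoproteins; C57BL/6 mice, like most inbred strains, carry a disrupted Mx1 allele whose transcript is still induced. Mx1 (ENSMUSG00000000386, chromosome 16, 97447035 to 97462907) stood at 8.47, 5.68, 11.2 and 11.6 CPM in DCKO, 4.74, 2.68, 2.02 and 0.456 in DN3b and 3.92, 6.62, 11.8 and 3.61 in DN3a. Every DCKO library lay above every DN3b library, and DN3a overlapped with both. Mx1 was 3.71-fold higher in DCKO than in DN3b (log2 1.89 ± 0.54, adjusted p = 0.028) and 2.61-fold lower in DN3b than in DN3a (-1.38 ± 0.54, 0.044); DCKO over DN3a gave 0.51 ± 0.52 (0.415). The first call was lost without DN3b library 2 (0.067) or 3 (0.0825) or DCKO library 1 (0.0584) or 3 (0.0698) or both DCKO 1 and 2 (0.0706), and the second without any 1 of 8 libraries, namely 2 (adjusted p = 0.0758) and 3 (0.17) of DN3a, 2 (0.0728), 3 (0.0976) and 4 (0.0668) of DN3b and 1 (0.0556), 3 (0.0533) and 4 (0.052) of DCKO, and without DCKO 1 and 2 together (0.0559). Mx2 (ENSMUSG00000023341, chromosome 16, 97535308 to 97560900) stood at 6.89, 6.90, 16.1 and 16.1 CPM in DCKO, 5.91, 3.22, 2.92 and 0.553 in DN3b and 9.85, 7.78, 12.6 and 7.34 in DN3a. The DCKO libraries fell into a lower and a higher pair, both above all DN3b libraries. The log2 fold change was 1.86 ± 0.51 for DCKO over DN3b (0.023), 0.29 ± 0.49 for DCKO over DN3a (0.623) and -1.57 ± 0.51 for DN3b over DN3a (0.020). The first was lost without DN3b library 2 (0.0609) or 3 (0.0677) or DCKO library 3 (0.0685), the last without DN3a library 3 (0.0539).

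The oligoadenylate synthetases make a messenger that activates the RNA-degrading enzyme RNase L, and the Oasl genes encode proteins related to them. Oasl2 (ENSMUSG00000029561, chromosome 5, 114896936 to 114912234) stood at 15.6, 15.6, 24.7 and 16.3 CPM in DCKO, 9.74, 6.58, 6.21 and 3.19 in DN3b and 17.0, 17.6, 30.6 and 29.2 in DN3a. DN3b lay below both other groups in every library. Oasl2 was 2.80-fold higher in DCKO than in DN3b (log2 1.49 ± 0.31, adjusted p = 0.0054) and 3.66-fold lower in DN3b than in DN3a (-1.87 ± 0.31, 0.00036), while DCKO over DN3a gave -0.38 ± 0.30 (0.279). Oas1a rose in DCKO against DN3b (0.95 ± 0.29, 0.039), a call that leaving out any of 7 single libraries ended: DN3b library 2 (0.101), 3 (0.0996) or 4 (0.0571), DN3a library 3 (0.0508), or DCKO library 1 (0.107), 2 (0.0944) or 4 (0.0527). Without DCKO 1 and 2 together its adjusted p was 0.276. Oas3 fell in DN3b (-0.93 ± 0.26, 0.0097) and in DCKO (-0.70 ± 0.26, 0.034) against DN3a, the second lost when 3 (0.0943) or 4 (0.0689) of the DN3a libraries or 1 (0.0821) or 2 (0.0738) of the DCKO libraries, or both of these (0.261), was left out. Oas2 fell in DN3b (-1.10 ± 0.30, 0.0085) and stood at -0.70 ± 0.30 (0.058) for DCKO over DN3a, where upper quartile scaling (0.0163), DESeq2 (0.0329) and the 8 libraries alone (0.048) called it lower.

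The Ifit genes encode proteins that bind viral RNA lacking host cap marks, and their 3 members did not move alike. Ifit1 (ENSMUSG00000034459, chromosome 19, 34640871 to 34650009) stood at 11.4, 10.8, 18.9 and 13 CPM in DCKO, 8.95, 6.43, 5.20 and 0.781 in DN3b and 14.3, 17.8, 29.6 and 14.4 in DN3a. The groups DCKO and DN3b did not overlap, and DN3b library 4 stood far below the other DN3b libraries. Ifit1 fell in DN3b against DN3a (log2 -1.83 ± 0.49, adjusted p = 0.0076) and stood at 1.33 ± 0.49 for DCKO over DN3b (0.074), with 1.70 (0.0381) without DN3b library 1 and 0.96 (0.0396) without DN3b library 4. Ifit2 (ENSMUSG00000045932, chromosome 19, 34550694 to 34576419) stood at 30.3, 31.8, 29.6 and 28.8 CPM in DCKO, 24.2, 37.7, 34.1 and 37.2 in DN3b and 10, 23.3, 22.7 and 20.9 in DN3a. It ran against the other genes: every DN3a library lay below every other library. Ifit2 rose in DN3b (0.79 ± 0.22, 0.0098) and in DCKO (0.65 ± 0.22, 0.024) against DN3a. The second value was 0.43 (0.0257) without DN3a library 1, and it lost the call without DCKO library 1 (0.0555) or 2 (0.0603) or both (0.123). Of the core and the gamma-activated site, the promoter window of Ifit2 held the second motif and those of Ifit1 and Ifit3 the first. Reads of Ifit3 and its near-identical neighbour Ifit3b can be split between them by the counting.

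Bst2 encodes tetherin, which holds budding virus at the cell surface. It averaged 114 ± 10.9 CPM in DCKO, 64.2 ± 28.5 in DN3b and 68.8 ± 14.9 in DN3a (SD, n = 4), and rose in DCKO against DN3b (log2 0.83 ± 0.24, adjusted p = 0.030) and DN3a (0.73 ± 0.24, 0.018). DN3b library 1, at 107 CPM, reached the DCKO range. The first call was lost without DN3b library 2 (0.0917), 3 (0.0966) or 4 (0.0678) or DCKO library 1 (0.0739), 2 (0.0689) or 4 (0.0523), and the second without DN3a library 2 (0.0535). Without DCKO 1 and 2 together both were lost (0.162 and 0.0917). Samd9l (ENSMUSG00000047735, chromosome 6, 3372257 to 3399572), which restrains cell growth and poxviruses, stood at 35.3, 40.1, 39.2 and 31.4 CPM in DCKO, 55.0, 47.3, 39.3 and 29.1 in DN3b and 85.1, 122, 112 and 91.9 in DN3a. It fell by 1.49 ± 0.18 in DCKO (2.5e-05) and by 1.27 ± 0.18 in DN3b (0.00014) against DN3a, and DCKO over DN3b gave -0.23 ± 0.18 (0.402), the lowest of the 43 values in that comparison. Rsad2, which encodes viperin, and Rtp4 fell in DN3b against DN3a (-1.32 ± 0.41, 0.016, and -1.23 ± 0.26, 0.0017), the first call lost without DN3a library 3 (0.0607). For DCKO over DN3a Rtp4 stood at -0.58 ± 0.25 (0.063), where upper quartile scaling (0.0151), DESeq2 (0.0397) and the 8 libraries alone (0.0134) called it lower.

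**Figure D4:**
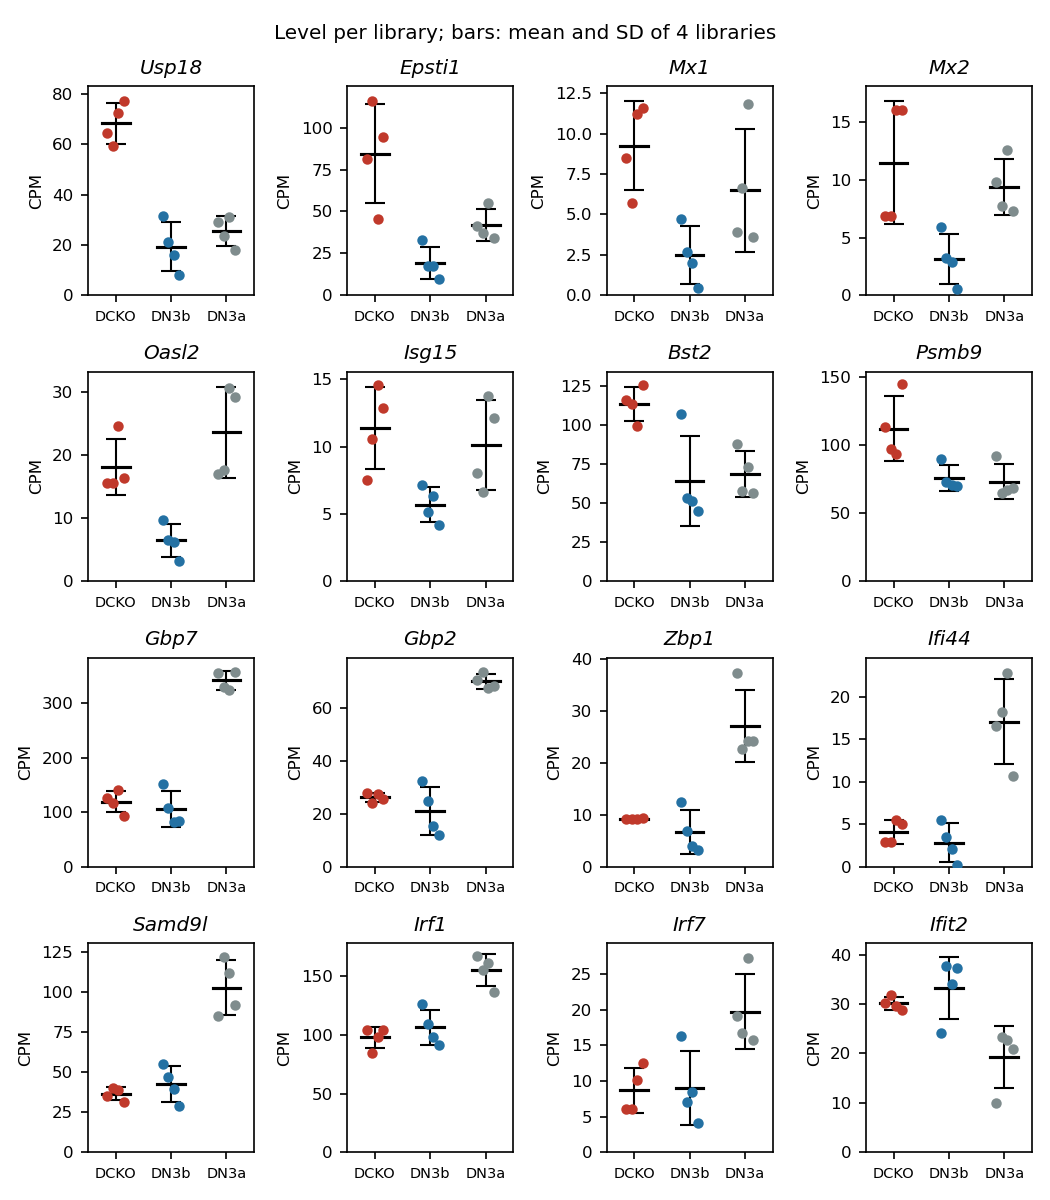
CPM of 16 of the genes in each library (points), with the mean and SD of the 4 libraries of a group (bars), for DCKO, DN3b and DN3a from left to right. Usp18 and Epsti1 are highest in DCKO; Gbp7, Gbp2, Zbp1, Ifi44, Samd9l, Irf1 and Irf7 are highest in DN3a with DCKO near DN3b; Mx1, Mx2, Oasl2 and Isg15 have their lowest mean in DN3b, with DN3a libraries of Mx1 and Isg15 reaching into its range; Ifit2 is lowest in DN3a.

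The genes of the ISG15 system moved apart from the inhibitor Socs1. Isg15 encodes a ubiquitin-like protein that is attached to other proteins, and Usp18 encodes the protease that removes it and that also blocks the type I receptor. Usp18 (ENSMUSG00000030107, chromosome 6, 121245906 to 121270917) stood at 64.5, 59.3, 72.4 and 77.4 CPM in DCKO, 31.5, 21.0, 16.1 and 8.17 in DN3b and 29.2, 23.7, 31.0 and 18 in DN3a. Every DCKO library lay well above all 8 control libraries, whose groups overlapped. Usp18 was 3.56-fold higher in DCKO than in DN3b (log2 1.83 ± 0.31, adjusted p = 0.0017) and 2.68-fold higher than in DN3a (1.42 ± 0.31, 0.0015), the largest rise of the 43 against DN3a. Isg15 (ENSMUSG00000035692, chromosome 4, 156199424 to 156200818) stood at 7.5, 10.6, 14.6 and 12.9 CPM in DCKO, 7.14, 5.16, 6.29 and 4.17 in DN3b and 8.05, 6.64, 13.8 and 12.1 in DN3a. DCKO lay above DN3b in every library, narrowly for library 1, and overlapped with DN3a. Isg15 rose 2.01-fold in DCKO against DN3b (1.0 ± 0.27, 0.021; lost without DN3b library 2, 0.0643, or DCKO library 3, 0.0699) and fell in DN3b against DN3a (-0.83 ± 0.27, 0.020; lost without DN3a library 3, 0.0736, or 4, 0.0529, or DN3b library 4, 0.0544).

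Socs1 (ENSMUSG00000038037, chromosome 16, 10782240 to 10785536), an inhibitor of JAK kinases that cytokines also induce in thymocytes, stood at 17.5, 16.0, 16.6 and 16.5 CPM in DCKO, 30.3, 10.5, 10.1 and 13.5 in DN3b and 45, 21.1, 26.4 and 30.8 in DN3a. Library 1 was the highest of both control groups. Socs1 fell by 0.89 ± 0.32 in DCKO (adjusted p = 0.029) and by 0.94 ± 0.32 in DN3b (0.027) against DN3a, with 0.05 ± 0.32 (0.937) for DCKO over DN3b. The DCKO call was lost without DN3a library 1 (0.0927) or DCKO library 2 (0.054), 3 (0.051) or 4 (0.0576), or without both DCKO 1 and 2 (0.115). The DN3b call was lost without DN3a library 1 (0.0805) or DN3b library 2 (0.0709), 3 (0.0734) or 4 (0.0645), and the value was -1.44 (0.000195) without DN3b library 1.

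All 5 interferon-induced GTPases fell in DN3b against DN3a, and 4 of the 5 fell in DCKO. Of all genes tested, 25.2% were lower in DN3b and 29.5% in DCKO against DN3a. Igtp (0.0551) and Irgm1 (0.0715) lost the DCKO call without DCKO libraries 1 and 2. Guanylate-binding proteins and immunity-related GTPases attack the membranes around intracellular microbes. Gbp7 (ENSMUSG00000040253, chromosome 3, 142530342 to 142550149) stood at 125, 117, 141 and 93.4 CPM in DCKO, 152, 108, 81.7 and 83.2 in DN3b and 355, 330, 324 and 356 in DN3a. Every DN3a library lay far above every other library. Gbp7 was 2.86-fold lower in DCKO (log2 -1.52 ± 0.18, adjusted p = 2.5e-05) and 3.21-fold lower in DN3b (-1.68 ± 0.19, 3.9e-05) than in DN3a. Gbp2 (ENSMUSG00000028270, chromosome 3, 142620602 to 142638008) stood at 27.7, 24.2, 27.6 and 25.7 CPM in DCKO, 32.3, 24.7, 15.2 and 12.1 in DN3b and 70.7, 73.7, 67.7 and 68.3 in DN3a. It fell likewise, by 1.42 ± 0.23 in DCKO (0.00022) and 1.73 ± 0.24 in DN3b (0.00011), and DCKO over DN3b gave 0.32 ± 0.23 (0.363), with 0.60 (0.0463) without DN3b library 1.

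Gbp3 lies between Gbp7 and Gbp2 on chromosome 3 and behaved differently. It averaged 34.6 ± 11.6 CPM in DCKO, 17.0 ± 2.15 in DN3b and 29.6 ± 2.96 in DN3a (SD, n = 4), with 47.9 and 40.4 CPM in DCKO libraries 1 and 2 and 26.6 and 23.3 in DCKO libraries 3 and 4. It rose 2.03-fold in DCKO against DN3b (log2 1.02 ± 0.20, adjusted p = 0.0041) and fell in DN3b against DN3a (-0.79 ± 0.20, 0.0053), while DCKO over DN3a gave 0.23 ± 0.20 (0.343), a value that turned to -0.26 (0.179) without DCKO libraries 1 and 2. Guanylate-binding protein genes are similar in sequence, so reads may be misassigned among them. Igtp, which encodes the GTPase Irgm3, rose in DCKO against DN3b (0.71 ± 0.18, 0.019) and fell against DN3a (-0.60 ± 0.18, 0.013); the rise was lost without DN3b library 3 (0.0676) or DCKO library 1 (0.0612) or 3 (0.0502), or without both DCKO 1 and 2 (0.111).

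The partner genes Parp9 and Dtx3l, whose products form a ubiquitin ligase complex, with Parp14 and Trim30a, fell together in both DCKO and DN3b against DN3a. Their log2 fold changes against DN3a lay between -1.29 and -0.87 in DCKO and between -1.60 and -1.32 in DN3b, and each of the 8 tests had an adjusted p of 0.00037 or less. DCKO over DN3b gave 0.22 to 0.50, with 0 called by edgeR, 2 at an unadjusted p under 0.05 and 1 each by DESeq2 and limma-voom, and Parp9 came closest (0.45 ± 0.15, 0.051, and 0.00521 without DN3b library 1). Parp9 and Dtx3l overlap at their starts on opposite strands of chromosome 16, so that without a stated strand setting a part of their reads cannot be told apart. Trim30a belongs to a cluster of near-identical genes.

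The 3 genes of antigen processing lie side by side on chromosome 17 and none passed in DN3b against DN3a in the fit to all 12 libraries (0 of 3 at an unadjusted p under 0.05). With the replicate block Tap1 and Psmb8 passed, and without DN3b library 1 Tap1 did (log2 -0.74, adjusted p = 0.0171). Psmb9 and Tap1 overlap at their starts on opposite strands. Psmb8 and Psmb9 encode immunoproteasome subunits that cut peptides for MHC class I, and Tap1 encodes a subunit of the peptide transporter. Psmb8 (ENSMUSG00000024338, chromosome 17, 34197721 to 34201454) stood at 439, 344, 378 and 496 CPM in DCKO, 420, 332, 339 and 344 in DN3b and 391, 257, 307 and 295 in DN3a. The groups overlapped in all 3 comparisons. Psmb8 rose 1.33-fold in DCKO against DN3a (log2 0.41 ± 0.15, adjusted p = 0.028), a call that was lost without any 1 of 7 libraries, namely 2 (0.0843), 3 (0.06) and 4 (0.0616) of DN3a, 2 (0.0522) and 3 (0.0528) of DN3b and 1 (0.0884) and 4 (0.0811) of DCKO, and without DCKO 1 and 2 together (0.0513). Psmb9 (ENSMUSG00000096727, chromosome 17, 34181987 to 34187764) stood at 113, 96.8, 93.2 and 145 CPM in DCKO, 89.4, 72.6, 70.5 and 69.5 in DN3b and 91.9, 64.3, 66.9 and 68.3 in DN3a. The DCKO libraries lay above all control libraries, narrowly for library 3. Psmb9 rose 1.48-fold against DN3b (0.57 ± 0.16, 0.024) and 1.54-fold against DN3a (0.62 ± 0.16, 0.0041); the first was lost without DN3b library 2 (0.0766), 3 (0.0856) or 4 (0.0584), DCKO library 1 (0.0683) or both DCKO 1 and 2 (0.0751).

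Of the other induced genes, Epsti1 had the largest rise of the 43 in DCKO against DN3b. Epsti1 (ENSMUSG00000022014, chromosome 14, 77904239 to 78002657), named for its induction in epithelium by stroma, stood at 81.6, 116, 45.6 and 94.4 CPM in DCKO, 32.7, 17.5, 17.6 and 9.79 in DN3b and 41.5, 36.9, 55.3 and 34.3 in DN3a. DCKO library 3 lay within the DN3a range and the other DCKO libraries above all controls. Epsti1 was 4.34-fold higher in DCKO than in DN3b (log2 2.12 ± 0.34, adjusted p = 0.0012) and 2.01-fold higher than in DN3a (1.01 ± 0.33, 0.018, but 0.0671 without DCKO library 2 and 0.162 without DCKO 1 and 2), and it fell in DN3b against DN3a (-1.11 ± 0.33, 0.013). Ifi44 (ENSMUSG00000028037, chromosome 3, 151730922 to 151749960), a type I interferon target, had the largest falls. It stood at 2.86, 2.95, 5.52 and 5.04 CPM in DCKO, 5.55, 3.51, 2.07 and 0.163 in DN3b and 16.6, 18.2, 22.8 and 10.7 in DN3a, and was 4.17-fold lower in DCKO (-2.06 ± 0.59, 0.0091, but 0.0978 without DCKO libraries 1 and 2) and 6.00-fold lower in DN3b (-2.58 ± 0.61, 0.0033) than in DN3a. Ifi35, Xaf1 and Sp100 fell in both DCKO and DN3b against DN3a, by 0.53 to 0.69 and by 0.64 to 1.17 on the log2 scale. In DCKO the fall of Ifi35 (0.035) was lost when 1 (0.104) or 3 (0.0663) of the DN3a libraries or 2 (0.0822) or 3 (0.0607) of the DCKO libraries was left out, and that of Xaf1 (0.022) without DN3a library 3 (0.0643). Without DCKO 1 and 2 together their adjusted p was 0.161 and 0.151.

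Per kilobase of merged exons, mean levels spanned from 0.668 CPM per kb (Ifi44) to 126 (Bst2) in DCKO, from 0.457 (Ifit3) to 106 (Psmb8) in DN3b and from 0.939 (Ifit3) to 92.4 (Psmb8) in DN3a. Dtx3l at 35.9, 29.3 and 76.3 and Gbp7 at 21.2, 18.9 and 60.8 CPM per kb (DCKO, DN3b and DN3a) were among the more abundant genes that fell, and Usp18 at 24.5, 6.87 and 9.13 among those that rose in DCKO.

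Other genes of the pathway were counted in lists of ligands, receptors, factors and targets. Of all genes tested, 10.3% were higher and 8.58% lower in DCKO against DN3b, 30.7% and 29.5% in DCKO against DN3a, and 27.4% and 25.2% in DN3b against DN3a, and the counts of each list are read beside these shares. Of 21 interferon genes, 18 had no count in any library, Ifnb1 and the Ifna genes among them. Ifnab had 5, 4 and 15 counts in the 4 libraries of DCKO, DN3b and DN3a together, Ifnz 1, 7 and 9, and Ifng 3, 1 and 5. None of the 21 could be tested, and transcripts of cells outside the sort were not measured. Of 8 tested receptor and kinase genes, 0 rose and 0 fell in DCKO against DN3b, 1 rose and 5 fell in DCKO against DN3a, and 0 rose and 4 fell in DN3b against DN3a; in the first, 1 was lower at an unadjusted p under 0.05 and DESeq2 and limma-voom called 0. Jak2 averaged 61.2 ± 5.65 CPM in DCKO, 67.4 ± 6.83 in DN3b and 118 ± 12.2 in DN3a (SD, n = 4), falling by 0.95 ± 0.11 in DCKO (adjusted p = 1.5e-05) and 0.81 ± 0.11 in DN3b (8.8e-05) on the log2 scale. Jak1 fell by 0.56 ± 0.11 (0.00092) and 0.60 ± 0.11 (0.00083), and Ifnar1 by 0.49 ± 0.11 (0.0021) and 0.51 ± 0.11 (0.0020), in the same comparisons. Ifngr1, named after its values were seen, fell by 1.33 ± 0.34 (0.0047) and 1.16 ± 0.34 (0.012). Tyk2 and Il10rb had the lowest adjusted p of these genes for DCKO over DN3b, at 0.115 (log2 -0.44 ± 0.19) and 0.16 (-0.48 ± 0.23), above the threshold.

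Of 10 further transcription factors, 0 rose and 1 fell in DCKO against DN3b, 2 rose and 4 fell in DCKO against DN3a, and 1 rose and 3 fell in DN3b against DN3a (edgeR). In the first, 1 was higher at an unadjusted p under 0.05, and DESeq2 and limma-voom each called 1 higher. Irf4 fell in DCKO against DN3b (log2 -1.44 ± 0.43, adjusted p = 0.033) on 45 counts in the 4 DCKO libraries, and against DN3a (-2.34 ± 0.42, 0.00043). The repressor Irf2 fell in DCKO (-1.04 ± 0.19, 0.00048) and DN3b (-0.79 ± 0.19, 0.0039) against DN3a, Irf3 in DCKO (-0.54 ± 0.16, 0.013) and Stat3 in DN3b (-0.53 ± 0.15, 0.0091). Irf8 rose in both DCKO (0.52 ± 0.18, 0.027) and DN3b (0.65 ± 0.18, 0.010) against DN3a. Cited2 gave 0.49 ± 0.17 (0.062) for DCKO over DN3b.

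Of 12 further sensors and adaptors, 2 rose and 1 fell in DCKO against DN3b, 0 rose and 5 fell in DCKO against DN3a, and 0 rose and 7 fell in DN3b against DN3a. Eif2ak2, which encodes the kinase PKR, averaged 67.8 ± 2.85 CPM in DCKO, 41.0 ± 3.22 in DN3b and 60.8 ± 7.72 in DN3a (SD, n = 4), a log2 fold change of 0.73 ± 0.10 for DCKO over DN3b (adjusted p = 0.00053). The DNA sensor Aim2 rose as well (0.78 ± 0.23, 0.031), and both fell in DN3b against DN3a (-0.57 ± 0.10, 0.00064, and -1.05 ± 0.23, 0.0020). The kinase gene Ikbke fell in every comparison, by 0.66 ± 0.15 in DCKO against DN3b (0.0083), 1.52 ± 0.15 in DCKO against DN3a (7.1e-06) and 0.86 ± 0.15 in DN3b against DN3a (0.00045). Unc93b1, the chaperone of nucleic acid-sensing Toll-like receptors, and Tmem173, which encodes STING, fell in DCKO against DN3a (-3.11 ± 0.52, 0.00024, and -0.97 ± 0.16, 0.00028). Of 14 negative regulators 2 rose and 1 fell in DCKO against DN3b, 6 rose and 4 fell in DCKO against DN3a, and 3 rose and 4 fell in DN3b against DN3a; the calls against DN3b are about as many as the shares of all genes give. Samhd1, which depletes nucleotides, rose in all 3 (1.01 ± 0.19, 0.0032; 1.85 ± 0.20, 1e-05; 0.84 ± 0.19, 0.0029). The phosphatase gene Ptpn2 rose (0.39 ± 0.09, 0.0080) and Ptpn6 fell (-0.70 ± 0.13, 0.0029) in DCKO against DN3b. The cytokine target Cish fell in DCKO (-3.03 ± 0.51, 0.00023) and DN3b (-2.70 ± 0.50, 0.00070) against DN3a, while Rnaseh2b rose in both (1.22 ± 0.15, 2.5e-05, and 1.02 ± 0.15, 0.00015).

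**Figure D5:**
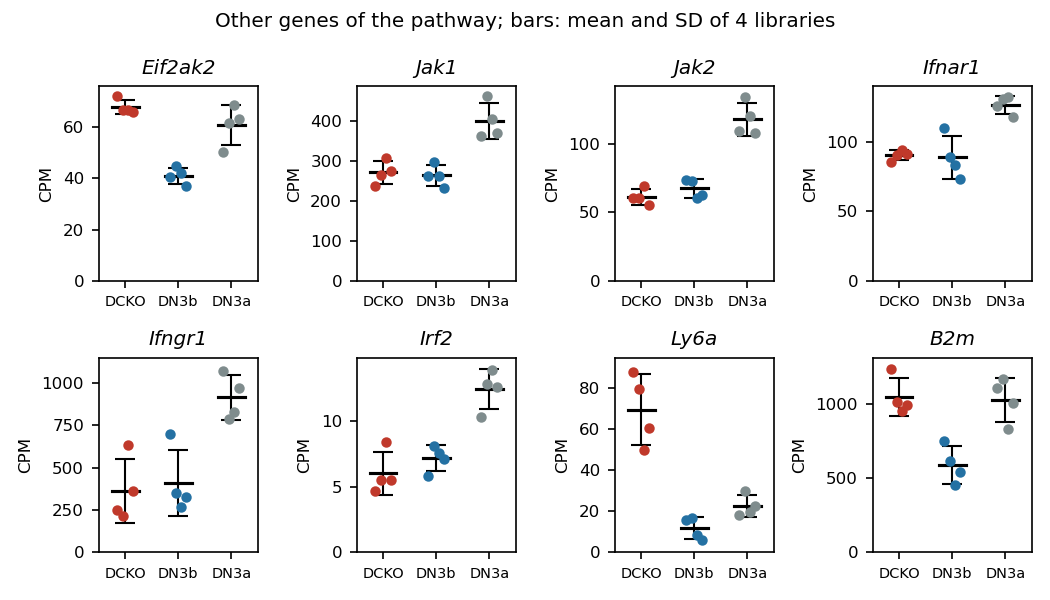
CPM of 8 other genes of the pathway in each library (points), with the mean and SD of the 4 libraries of a group (bars), for DCKO, DN3b and DN3a from left to right. Eif2ak2 and B2m are low in DN3b alone, Ly6a is highest in DCKO, and Jak1, Jak2, Ifnar1, Ifngr1 and Irf2 are highest in DN3a with DCKO near DN3b.

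A further list held 61 tested interferon-stimulated genes outside the 43. In DCKO against DN3b 16 rose and 2 fell (median log2 fold change 0.22), in DCKO against DN3a 5 rose and 32 fell (-0.74), and in DN3b against DN3a 2 rose and 45 fell (-0.92). The surface antigen gene Ly6a had the lowest adjusted p in the first, at 69.6 ± 17.4 CPM in DCKO, 11.8 ± 5.32 in DN3b and 22.6 ± 5.27 in DN3a (SD, n = 4; log2 2.56 ± 0.31 for DCKO over DN3b, adjusted p = 0.00017, and 1.62 ± 0.30 for DCKO over DN3a, 0.00049). Parp12 (0.59 ± 0.12, 0.0060) and the mitochondrial nucleotide kinase gene Cmpk2 (1.24 ± 0.27, 0.0066) also rose there. Stat4 (-1.64 ± 0.21, 3.1e-05) and Shisa5 (-1.65 ± 0.21, 3.2e-05) fell in DCKO against DN3a, and Trim12c (-1.34 ± 0.17, 7.5e-05) and Irgm2 (-1.31 ± 0.17, 8.3e-05) fell in DN3b against DN3a. The aminopeptidase gene Lap3 went the other way, up in DCKO (1.20 ± 0.13, 1.3e-05) and DN3b (1.07 ± 0.13, 6.4e-05) against DN3a. Of 17 further genes of MHC class I and antigen processing, 1 rose and 0 fell in DCKO against DN3b, 4 rose and 2 fell in DCKO against DN3a, and 2 rose and 4 fell in DN3b against DN3a. B2m, the light chain of MHC class I, averaged 1050 ± 128 CPM in DCKO, 592 ± 127 in DN3b and 1030 ± 149 in DN3a (SD, n = 4), rising in DCKO against DN3b (0.83 ± 0.16, 0.0036) and falling in DN3b against DN3a (-0.80 ± 0.16, 0.0012). The chaperones Calr and Canx rose in DCKO (0.99 ± 0.13, 4.5e-05, and 1.01 ± 0.18, 0.00035) and DN3b (0.68 ± 0.13, 0.00089, and 0.68 ± 0.18, 0.0060) against DN3a, and the proteasome activator gene Psme2 in DCKO (0.40 ± 0.09, 0.0020).

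Macrophages and dendritic cells of the thymus express many of the same genes, so their markers were summed. The 13 macrophage and monocyte markers summed to 11.8 to 27.9 CPM in DCKO, 5.44 to 13.6 in DN3b and 23.9 to 35.0 in DN3a, with Lyz2 the largest part (9.26 ± 3.53, 4.25 ± 3.79 and 23.8 ± 5.99 CPM; SD, n = 4). The defining genes C1qa, C1qb, C1qc, Csf1r, Adgre1 and Mertk averaged 0.305 CPM or less in every group. Every marker of this list except Lyz2 and Cd68 had its highest mean in DCKO, these defining genes included. Cd68 averaged 3.28 CPM in DCKO, 3.51 in DN3b and 3.32 in DN3a. Itgam averaged 1.87 CPM in DCKO, 0.507 in DN3b and 1.17 in DN3a, and rose in DCKO against DN3b (log2 1.85 ± 0.44, edgeR adjusted p = 0.012). S100a8 had 121, 1 and 1 counts and S100a9 215, 0 and 2. In DCKO these came almost wholly from library 1 (3.47 and 4.88 CPM) and library 4 (1.12 and 2.93). The 12 conventional dendritic cell markers summed to 17.4 to 32.1, 16.5 to 23.3 and 12.2 to 17.9 CPM, with Flt3 the largest part and H2-Ab1 next; Xcr1, Clec9a and Zbtb46 averaged 0.213 CPM or less and Cd209a had no count. The 8 plasmacytoid dendritic cell markers summed to 380 to 627, 191 to 764 and 398 to 899 CPM, nearly all from Ccr9 and Ly6d, which thymocytes express, and Siglech had 0, 4 and 3 counts. The 7 B cell markers summed to 19.6 to 24.8, 10.1 to 32.5 and 42.8 to 58.5 CPM, mostly Cd79b, while Pax5 had 1, 0 and 1 counts. The 6 gamma-delta T cell markers found summed to 245 to 590 CPM in DCKO, 546 to 836 in DN3b and 1450 to 1620 in DN3a, nearly all from Tcrg-C1, Tcrg-C2 and Trgv2, while Il23r averaged 0.0309 CPM or less. The 10 thymic stroma markers summed to 90.8 to 155, 83.0 to 168 and 199 to 275 CPM, nearly all from Pecam1 and Epcam, while Foxn1 averaged 0.024 CPM or less and Pdgfra had no count. The 10 markers of NK and cytotoxic lymphocytes summed to 282 to 483, 405 to 577 and 152 to 272 CPM, mostly from Gzma, and the 8 erythroid and platelet markers to 4.06 to 17.3, 2.83 to 29.3 and 8.19 to 26.0 CPM. The macrophage sum was highest on average in DN3a, an order set by Lyz2, since the other markers of that list except Cd68 were highest in DCKO. B cell, gamma-delta T cell and thymic stroma sums were also highest on average in DN3a, like most of the 43 genes. So was the plasmacytoid dendritic cell sum, at 595 CPM in DN3a, 487 in DCKO and 388 in DN3b. The erythroid and platelet sum had the same order (14.6, 11.3 and 10.5 CPM). The ranges of both overlapped between the groups. The macrophage and B cell sums were also lowest in DN3b, and the gamma-delta T cell and thymic stroma sums in DCKO. By contrast, the conventional dendritic cell sum was highest on average in DCKO, at 26.3 CPM against 18.7 in DN3b and 15.1 in DN3a. The NK and cytotoxic lymphocyte sum was highest in DN3b, at 485 CPM against 398 in DCKO and 226 in DN3a. The part of all these cells in the results was not tested.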

How the data were processed

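Per the labels' protocols, RNA of the 12 samples was extracted with RNeasy Micro, depleted of ribosomal RNA and prepared with a stranded TruSeq kit. Tools named in the submitters' processing notes are TopHat2 2.0.12, HTSeq, Trim Galore and DESeq2 1.6.3, with the build GRCm38. Neither the annotation release nor the strand setting of the counting is given in the sources used here; reads of overlapping, antisense or near-identical genes therefore cannot be separated. The authors deposited raw counts per Ensembl gene, on which all levels and tests rest. Their table of a size-factor-scaled signal, deposited beside the counts, had a constant ratio to them in each column and had no other use. In the DESeq2 tables that the authors deposited stand a mean signal, a log2 fold change, a score (the Wald statistic) and p-values; these served only for the counts of calls set beside those obtained here.

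Symbols came from GENCODE M21 (42462 of 43629 genes). The 43 genes, their roles, the further lists and the naming rule were chosen with earlier results of these data known. Another 2 genes of those lists are not reported here, and the counts and sums leave them out. Tests ran in R 4.3.3 (edgeR 4.0.16; DESeq2 1.42.0; limma 3.58.1). Genes were kept with filterByExpr (count minimum 10). A model per gene, edgeR's quasi-likelihood fit on TMM factors with the group as its term, held all 12 libraries (9 residual degrees of freedom) and was checked on simulated data; tests are two-sided with Benjamini-Hochberg adjustment over all genes of a contrast and 0.05 as the threshold. Every adjusted p in the text is from edgeR unless another tool is named, and every SE is the size of the log2 fold change divided by the square root of its F statistic. Depth (28479157 counts or more) leaves little counting error for most genes, PCR copies are not separated, and spreads between replicates are given; replicates of a group differed by more than counting noise in every pair (chi-square over its degrees of freedom 33.5 or more).

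Replicate numbers paired DN3b with DN3a: same-numbered libraries deviated together (correlations of 0.443, 0.564, 0.354 and 0.521), and each of the 8 correlated best with its own number. Values per library are given for the 5 largest called changes of each comparison at a mean of 5 CPM or more, up to 3 called genes against the majority, and Irf1, Irf7, Irf9, Stat2, Isg15, Usp18, Socs1, Ifit1, Mx1 and Psmb8; of the further lists, up to 3 genes per comparison with the lowest adjusted p. Other examples were chosen after their values were seen. Alternatives were upper quartile scaling, no low-count filter or a stricter one (count minimum 30, 1 CPM in 4 libraries), DESeq2, limma-voom, the 8 libraries of a comparison alone and with a replicate block, leaving out DCKO libraries 1 and 2 together, and leaving out each library. The labels name no batch.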

Additional observations from a re-analysis of the deposited data

Results flagged for a closer look

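In groups of 4 libraries, 1 library lay far from the other 3 (above Dixon's critical value at 95%) for 10 of 129 combinations of gene and group, where chance gives about 6.45. Of these, 4 were library 1 of DN3b: Bst2 at 107 CPM against 45 to 53.5 in the others, Socs1 at 30.3 against 10.1 to 13.5, Psmb8 at 420 against 332 to 344 and Psmb9 at 89.4 against 69.5 to 72.6. In DN3a, library 1 was far above the others for Zbp1 (37.3 CPM against 22.6 to 24.2) and Psmb9 (91.9 against 64.3 to 68.3), library 3 for Xaf1 (33.1 against 26.2 to 27.1) and library 4 for Gbp3 (34.0 against 27.6 to 28.6). In DCKO, library 3 was far above for Oasl2 (24.7 CPM against 15.6 to 16.3) and library 4 for Ifi27l2a (3.70 against 1.88 to 2.14).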

How the results depend on the processing

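Of 2580 values of the 43 genes under the alternatives, 2388 kept direction and side of the threshold, 108 lost a call, 52 gained one and 32 changed sign, none of these with a call on either side; 47 of 74 calls were kept in every alternative. For DCKO against DN3b, genes called (2635) were 2169 with the 8 libraries alone and 1062 with these and the replicate block, 950 without DCKO libraries 1 and 2 together and 1601 to 3249 when 1 library was left out, lowest on leaving out library 2 (1670) or 3 (1601) of DN3b or 1 (1730) or 2 (1654) of DCKO; interferon-stimulated genes called (11) were 10, 6, 6 and 5 to 21. Oas1a lost its call with the 8 libraries alone (adjusted p = 0.0697; 0.0668 with the block), and the block ended those of Mx1 (0.0845), Mx2 (0.13), Isg15 (0.0759) and Psmb9 (0.0699). Replicate numbers did not pair DCKO with DN3b (correlations of -0.257 to 0.0691) or DN3a (-0.192 to 0.119), and 1 and 0 of 8 libraries correlated best with their own number. For DCKO against DN3a, 15 of the 43 genes were called without DCKO libraries 1 and 2 together (29), and 6632 of all genes (8391). The blocked fit of DN3b against DN3a called 9233 genes (7334, and 7177 with the same 8 libraries and no block) and, beyond the 5 gains given with that comparison, changed no call of the 43. The median of all genes lay, under upper quartile scaling, at -0.101, -0.264 and -0.167, and called genes split into 1051 higher and 1644 lower (1438 and 1197), 3119 and 5528 (4275 and 4116), and 3021 and 4536 (3815 and 3519). Sign changes for DCKO over DN3b were Irf7 with limma-voom (0.036), the block (0.037) and without DCKO libraries 1 and 2 (0.33), and Dhx58 (-0.021) and Socs1 (-0.026) with upper quartile scaling; for DCKO over DN3a, Ifit3 (-0.056) and Isg15 (-0.041) with upper quartile scaling, and Rsad2 (0.016) and Gbp3 (-0.26) without DCKO libraries 1 and 2; for DN3b over DN3a, Psmb9 (-0.093) with upper quartile scaling. Leaving out 1 library gave ranges across 0 for Irf7 (-0.30 to 0.41), Ddx58 (-0.049 to 0.44), Dhx58 (-0.15 to 0.40), Socs1 (-0.14 to 0.55) and Ifi35 (-0.013 to 0.32) for DCKO over DN3b, Ifit3 (-0.064 to 0.81), Rsad2 (-0.43 to 0.077), Gbp3 (-0.0037 to 0.38) and Tap1 (-0.28 to 0.11) for DCKO over DN3a, and Bst2 (-0.45 to 0.034), Psmb9 (-0.035 to 0.18) and Ifi27l2a (-0.23 to 0.37) for DN3b over DN3a. The cause was not tested. Depth limits Ifit3 and Ifi27l2a, with 126 and 285 counts in DN3b.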

Other observations

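Zfp36l1 and Zfp36l2 bind AU-rich sequence, of which the heptamer TATTTAT is a common form, so the 3′ untranslated regions of the 43 genes were searched for it in the GENCODE transcripts. It was found in 7 of the 43 (16.3%), namely Mx1, Sp100, Ifih1, Ifi44, Usp18, Oas3 and Ifit1, against 29.7% of 11708 tested genes with an annotated region. The regions of the 43 genes were shorter, with a median of 823 bases against 1355. Of the 7, Mx1 and Usp18 rose in DCKO against DN3b and the other genes missed the threshold, and Sp100, Ifih1, Ifi44 and Oas3 fell in DCKO against DN3a. A heptamer is a description of the letters and not a measured binding site.

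At an adjusted p under 0.05, the calls in the authors' deposited tables were higher for 13 of the 43 genes and lower for 0 in DCKO against DN3b, with 6 higher and 25 lower in DCKO against DN3a, and 1 higher and 33 lower in DN3b against DN3a.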
